A study of Mus musculus with 20 samples.

Results

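The acetylated regions described here are 1485 intervals of mouse liver chromatin that carried an H3K27ac peak in both livers lacking Cpt2 and Ppara together and in none of the 6 livers of the other genotypes. They were selected on those peak calls from 65776 consensus intervals of the H3K27ac data, of which they are 2.26%, with an overlap of 1 base or more counted as a call. H3K27ac was profiled by chromatin immunoprecipitation and sequencing (ChIP-seq) in livers of male C57BL/6 mice aged 9 weeks and fasted for 24 h, with 2 livers in each of 4 genotypes. Wild-type mice (WT) were compared with mice whose liver lacked Cpt2 (Cpt2 KO, genotype Cpt2 L-/-), with Ppara -/- mice (Ppara KO) and with mice carrying both deletions (DKO, genotype Cpt2 L-/- ; Ppara -/-), in which the loss of Ppara is given as whole-body. The promoter that drives the deletion of Cpt2 in liver is not given in the sources used here. H3K4me1 was profiled in the same 8 livers, as the animal numbers in the peak names matched for 8 of 8, and H3K9ac in 1 WT and 1 Cpt2 KO liver. Beside the 1485 regions, 2167 intervals were called only in both WT livers, 1202 only in both Cpt2 KO livers and 290 only in both Ppara KO livers.

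H3K27ac is an acetylation of histone H3 found at active promoters and enhancers, and H3K4me1 is a methylation of the same histone that marks enhancers whether or not they are active. H3K9ac, another acetylation, lies mostly at active promoters. Cpt2 encodes the inner-membrane carnitine palmitoyltransferase that long-chain fatty acids need to enter mitochondrial oxidation, and Ppara encodes the fatty acid receptor that turns on oxidation genes in the fasted liver. Liver tissue is mostly hepatocytes by mass, but it also holds resident macrophages (Kupffer cells), stellate cells, endothelial cells and lymphocytes, and bulk chromatin mixes them all. In such samples, fewer cells of a type and less of a mark per cell cannot be told apart.

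Peak lists held from 44454 to 48929 H3K27ac peaks per library, and the 48929 and 48124 of the DKO livers were the longest. The smallest peak of a library, which follows the fragment length used by the caller, was 217 and 223 bases wide in DKO, 220 and 221 in Cpt2 KO, and 198 to 210 in WT and Ppara KO. Its part in which regions were called was not tested. H3K27ac calls were also read at the deleted genes, and neither gene was nearest to a DKO-only region. An interval at chr4:107901663-107903225, beside Cpt2, had H3K27ac folds of 7.77 and 9.87 in WT and 4.78 and 5.52 in Ppara KO and was in the peak list of no Cpt2 KO or DKO liver. Another 3 intervals were nearest to Cpt2, and over all 4 the calls were 2 and 1 in DKO, 2 and 2 in Ppara KO, 2 and 1 in Cpt2 KO and 2 and 3 in WT. Of 38 intervals nearest to Ppara, 17 and 15 were called in DKO, 26 and 26 in Ppara KO, 27 and 27 in Cpt2 KO and 34 and 28 in WT. The Ppara KO livers thus had nearly as many calls at Ppara as the Cpt2 KO livers, and the count of calls is no check of that deletion. The interval beside Cpt2 lay outside the gene body, so its calls are no check of the Cpt2 deletion either. As a check of the tissue, all 10 hepatocyte marker genes nearest to an interval were called in each of the 8 libraries.

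Some of the regions lay on gene starts, and the sequence before 6 of those starts is shown here because these 6, chosen after their values were seen, cover starts poor and richer in CpG. The first 4 belong to genes of white blood cells: Mpeg1 encodes a pore-forming protein of macrophages, Naip1 a sensor of bacterial proteins, Lair1 an inhibitory receptor for collagen and Csf3r the receptor for granulocyte colony-stimulating factor. Uhrf1 encodes a protein that maintains DNA methylation at replication, and E2f2 a transcription factor of the cell cycle. Each run holds the 250 bases before the RefSeq start in assembly GRCm38.p6, written 5′ to 3′ on the gene's strand, and capitals mark each CpG.
Mpeg1, chr19:12460520-12460769, plus strand: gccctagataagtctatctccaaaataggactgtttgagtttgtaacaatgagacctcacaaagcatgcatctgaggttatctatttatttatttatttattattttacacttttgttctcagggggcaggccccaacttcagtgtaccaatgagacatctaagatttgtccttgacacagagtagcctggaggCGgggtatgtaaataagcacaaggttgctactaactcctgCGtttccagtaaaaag
Naip1, chr13:100452865-100453114, minus strand: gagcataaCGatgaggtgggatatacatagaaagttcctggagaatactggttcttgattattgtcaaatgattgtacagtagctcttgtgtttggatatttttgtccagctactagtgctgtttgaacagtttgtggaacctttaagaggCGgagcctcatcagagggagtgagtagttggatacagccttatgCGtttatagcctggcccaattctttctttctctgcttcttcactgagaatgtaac
Lair1, chr7:4063205-4063454, minus strand: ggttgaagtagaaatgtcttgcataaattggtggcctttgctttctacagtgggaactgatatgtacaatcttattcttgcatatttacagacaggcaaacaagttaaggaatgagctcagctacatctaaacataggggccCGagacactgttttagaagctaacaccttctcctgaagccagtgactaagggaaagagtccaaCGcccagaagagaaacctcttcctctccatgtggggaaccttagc
Csf3r, chr4:126024409-126024658, plus strand: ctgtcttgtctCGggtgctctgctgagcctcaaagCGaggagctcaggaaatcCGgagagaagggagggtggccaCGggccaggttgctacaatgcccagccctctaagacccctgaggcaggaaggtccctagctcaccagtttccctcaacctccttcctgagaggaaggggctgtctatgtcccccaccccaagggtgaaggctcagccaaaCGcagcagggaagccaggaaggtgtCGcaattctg
Uhrf1, chr17:56303087-56303336, plus strand: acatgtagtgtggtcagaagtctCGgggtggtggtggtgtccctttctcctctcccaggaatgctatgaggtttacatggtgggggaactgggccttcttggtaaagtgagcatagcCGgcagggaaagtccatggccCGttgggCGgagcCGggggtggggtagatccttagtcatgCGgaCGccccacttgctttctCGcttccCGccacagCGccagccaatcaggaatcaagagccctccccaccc
E2f2, chr4:136172024-136172273, plus strand: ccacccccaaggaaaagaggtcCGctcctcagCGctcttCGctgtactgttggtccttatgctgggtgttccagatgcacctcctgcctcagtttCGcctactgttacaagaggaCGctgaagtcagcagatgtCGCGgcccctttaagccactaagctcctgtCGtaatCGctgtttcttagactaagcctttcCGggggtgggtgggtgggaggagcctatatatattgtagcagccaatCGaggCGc
These runs hold 2 CpG for Mpeg1, 3 for Naip1, 2 for Lair1, 6 for Csf3r, 10 for Uhrf1 and 12 for E2f2. This spread was set by the choice of the 6 starts. The DKO-only region covered all 250 bases for the 4 white blood cell genes, 238 for Uhrf1 and 186 for E2f2.

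The regions were weak and narrow among the peaks of the DKO livers. Their fold enrichment over input, the authors' own value for each peak, ran from 2.75 to 15.75 with a median of 6.0 in DKO replicate 1 and from 2.9 to 22.4 with a median of 6.56 in DKO replicate 2. The median of all peaks was 7.75 in replicate 1 and 8.21 in replicate 2, so that 195 and 308 of the 1485 regions lay above it. Their median width was 409 bases, against 619 for all intervals and 1981 for the intervals called in all 8 libraries. The regions called only in WT had a median width of 513 bases and median folds of 5.67 and 5.83, and those called only in Cpt2 KO had 485.5 bases and folds of 6.71 and 6.35. Between the DKO livers, the log2 folds of the regions correlated with a Pearson r of 0.43 over 1485 regions, given as a description because the regions share their libraries and were chosen by these calls. Replicate 2 had the higher fold at 945 of them.

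**Figure D1:**
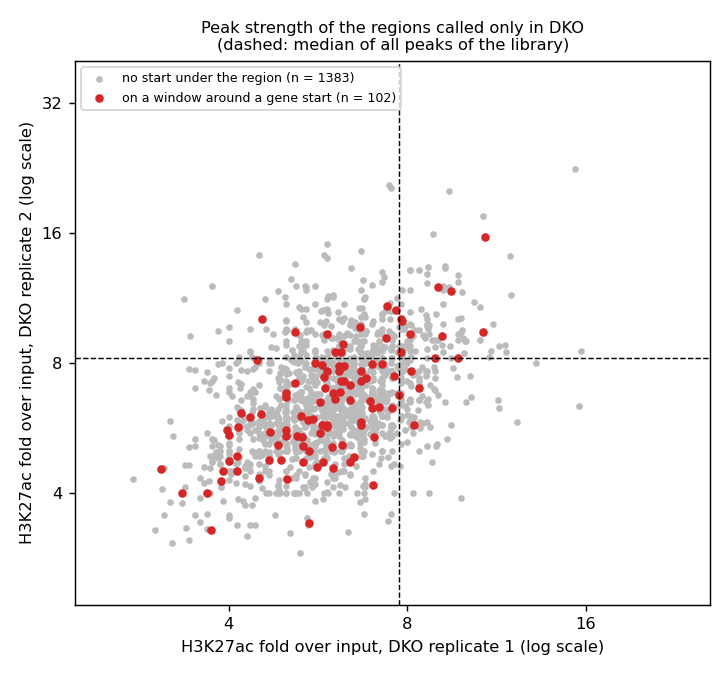
H3K27ac fold over input of each of the 1485 regions in DKO replicate 1 (horizontal) and replicate 2 (vertical), on log scales; red points are the 102 regions on a window around a gene start and dashed lines the median fold of all peaks in each library. Most points lie below both dashed lines, and the red points are spread through the grey ones.

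Absence from a list sets a limit on a peak and does not measure acetylation. No H3K27ac peak had a −log10 p under 7.02, and peaks with a −log10 p between 7 and 8 had median folds of 3.43 to 3.5 in the 8 libraries. Just inside the rule were a region in Tat (folds of 2.75 and 4.3 in DKO replicates 1 and 2) and a region in Hdac7 (3.0 and 3.27). Just outside it were intervals at Mylpf (3.5 and 4.79), Sik1 (3.33 and 3.47) and Ncoa3 (4.42 and 6.0), each called in 1 other liver with a fold of 2.63, 2.73 and 2.75. The intervals called in both DKO livers and in 1 other numbered 1598. The other liver was a Cpt2 KO liver for 1068 of them (66.8%), a Ppara KO liver for 432 (27%) and a WT liver for 98 (6.13%).

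The 12 regions with the highest DKO folds were scattered over the genome and mostly away from the RefSeq starts used here. The highest lay 238907 bases from Bcor (chrX:11797435-11798226), a transcriptional corepressor, with folds of 15.3 and 22.4. Next came a region in the body of Cacna1c (chr6:119138930-119139619), the pore subunit of an L-type calcium channel, with 11.9 and 14.1. A region in Fgfr1 (chr8:25537522-25537833), a fibroblast growth factor receptor, had 12 and 11.5. The region at the start of Uhrf1 (chr17:56302234-56303324) had 10.8 and 15.7. It was the only interval nearest to Uhrf1, and it also carried H3K4me1 in all 8 libraries and H3K9ac in both livers measured, so the start was marked in livers without an H3K27ac call there. The region nearest to Topaz1 had 10.7 and 17.5, and that in Etv5, an ETS family factor, had 10.6 and 10.8. The region 5670 bases from Klf10, a TGF-beta inducible zinc finger factor, had 10.4 and 11.1. The remaining 5 were nearest to Ccdc146, Myo16, Slc6a8, Kcnk10 and Ppp1r8, with folds from 9.76 to 12.3. Of the 12 regions, 5 had no H3K4me1 peak in any library.

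Genes were assigned by the nearest protein-coding gene body. Of 13199 genes nearest to an H3K27ac interval, 1200 (9.09%) were nearest to a DKO-only region, 982 of them to 1 region and 46 to 3 or more. Cacna1c held the most, with 7 of its 9 intervals, all inside the gene body between chr6:118954515 and 119146502. Their folds ran from 4.6 to 11.9 in the weaker liver of each region. All 9 Cacna1c intervals were called in both DKO livers, 1 in Cpt2 KO replicate 1, 1 in Ppara KO replicate 2 and none in the other 4 livers. Ttll5, a tubulin glutamylase, had 6 regions among 9 intervals over 105 kb of chromosome 12. DKO replicate 1 called 7 and replicate 2 called 9 of the Ttll5 intervals, against 1 in Cpt2 KO replicate 1 and 0 in the other 5 livers.

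Pdcd1lg2, which encodes the PD-1 ligand PD-L2, had 5 regions among 14 intervals. Its intervals were called 12 and 13 times in DKO, 5 and 4 times in Cpt2 KO, 3 and 3 times in the Ppara KO livers and 2 and 3 times in WT. Rgs1, a brake on G protein signalling in white blood cells, had 4 regions among 12 intervals, with 8 and 11 calls in DKO, 4 and 3 in Cpt2 KO, 2 and 1 in the Ppara KO livers and none in WT. The other genes with the most regions had more intervals or a lower share of them: Itpr1, an inositol trisphosphate receptor, had 6 of 53, Rad51b, a DNA repair gene, 6 of 84, Fmnl2, a formin, 5 of 35, Adgrv1, an adhesion receptor, 4 of 23, and Rptor, a subunit of mTORC1, 4 of 13. The tenth gene, 1700017B05Rik, had 4 of 18. At 9 of the 10 genes both DKO livers were above all 6 others in the number of calls, a count that the choice of the regions favours. The exception was Itpr1, with 28 and 27 calls in DKO and 33 in WT replicate 1.

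**Figure D2:**
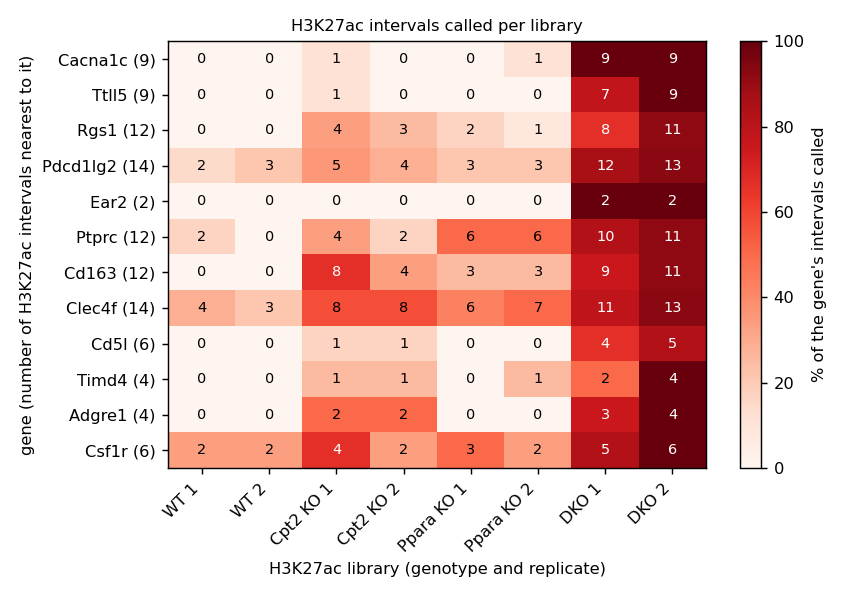
Number of H3K27ac intervals called in each of the 8 libraries (columns) at 12 genes (rows, with the number of intervals nearest to each); colour is the percent of the gene's intervals called. The DKO columns are the darkest at Cacna1c, with 9 of 9 intervals in both livers, while Clec4f and Cd163 also have calls in Cpt2 KO and Ppara KO.

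DKO-only regions lay at several marker genes of macrophages and Kupffer cells. Of the 12 marker genes nearest to an interval, 5 had a DKO-only region, against 9.09% of all genes. Of the 64 intervals of the 12 genes, 6 (9.38%) were such regions, against 2.26% of all intervals. The 6 regions had a median of 6.07 for the lower of their DKO folds, against 5.6 for all 1485. Clec4f, the galactose lectin of Kupffer cells, had 2 regions, at chr6:83658918-83659451 (folds of 6.35 and 8.0) and chr6:83659768-83660965 (6.17 and 6.67). The region in Timd4, a receptor for phosphatidylserine on resident macrophages, had 6.14 and 7.93. The region near Csf1r, the receptor for macrophage colony-stimulating factor, had 6.0 and 7.0. Cd5l, a secreted protein of macrophages, had a region 7116 bases from its body with 5.5 and 6.5, and Cd163, the haemoglobin scavenger receptor, one with 4.91 and 5.74.

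Calls over the whole macrophage list were fewest in WT and most in DKO. The list had 12 and 10 called intervals in WT, 19 and 19 in Ppara KO, 35 and 29 in Cpt2 KO and 45 and 54 in DKO, and its summed fold was 84.5 to 92.7, 144 to 147, 267 to 314 and 385 to 521. Leaving out the DKO-only regions, the DKO livers called 39 and 48 of the other 58 intervals, against 10 to 35 in the other 6. The 58 hold intervals called in 1 DKO liver alone, as at C1qa, so this count is not free of the DKO calls. At the 9 intervals of the list called in all 8 libraries, the median fold was 12.7 and 15.0 in DKO, 13.2 and 10.7 in Cpt2 KO, 7.66 and 7.16 in the Ppara KO livers and 8.44 and 8.0 in WT. Adgre1, Cd5l and Vsig4 had no call in any WT or Ppara KO liver and at least 1 in every Cpt2 KO and DKO liver. Other markers differed: Clec4f had 4 and 3 calls in WT and 6 and 7 in Ppara KO, and Cd163 had 3 and 3 in Ppara KO. C1qa, Cd68, Csf1r and Spi1 had calls in all 8 libraries. Marco and Trem2 had no call in any library, and Gpnmb had calls in Cpt2 KO alone. How much of the set of regions follows from the share of macrophages in the tissue was not tested.

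The lists of other cell types had other orders. Stellate cell and fibroblast markers had 37 and 48 called intervals in DKO, 48 and 48 in Cpt2 KO, 21 and 25 in the Ppara KO livers and 15 and 16 in WT, and 1 of 12 genes had a DKO-only region (Acta2, smooth muscle actin, folds of 4.83 and 5.0). Endothelial markers had 94 to 106 calls in DKO and 84 to 114 in the others, and 1 of 12 genes had a region (Stab2, a hyaluronan scavenger receptor, 6.11 and 6.92). Cholangiocyte markers had 0 of 6. The lymphocyte and neutrophil markers had 14 and 16 calls in DKO, or 11 and 13 without the DKO-only regions, and 3 to 8 in the other livers. Only 4 of the 14 genes of that list were nearest to an interval. Ptprc, which encodes CD45 of all white blood cells, supplied 10 and 11 of the DKO calls and had 3 regions among 12 intervals, while Itgam, an integrin of myeloid cells, had 0 calls in DKO and 1 in each WT and Ppara KO liver. The 3 Ptprc regions had folds of 8.09 and 6.6, 6.52 and 9.6, and 6.97 and 6.29. Hepatocyte markers had 85 calls in DKO replicate 1 and 50 in replicate 2, against 36 to 69 in the others, so that replicate 2 lay within the range of the other genotypes. DKO-only regions lay at 3 of the 10 hepatocyte genes, a share of 30%, against 9.09% of all genes. They were 6 of 145 intervals (4.14%), against 2.26% of all intervals. Alb, Ass1 and Tat each had 2 of them, with lower folds from 2.75 to 4.88. Ass1, a urea cycle enzyme, had a like split, with 22 calls in DKO replicate 1, 9 in replicate 2 and 2 to 8 in the others.

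**Figure D3:**
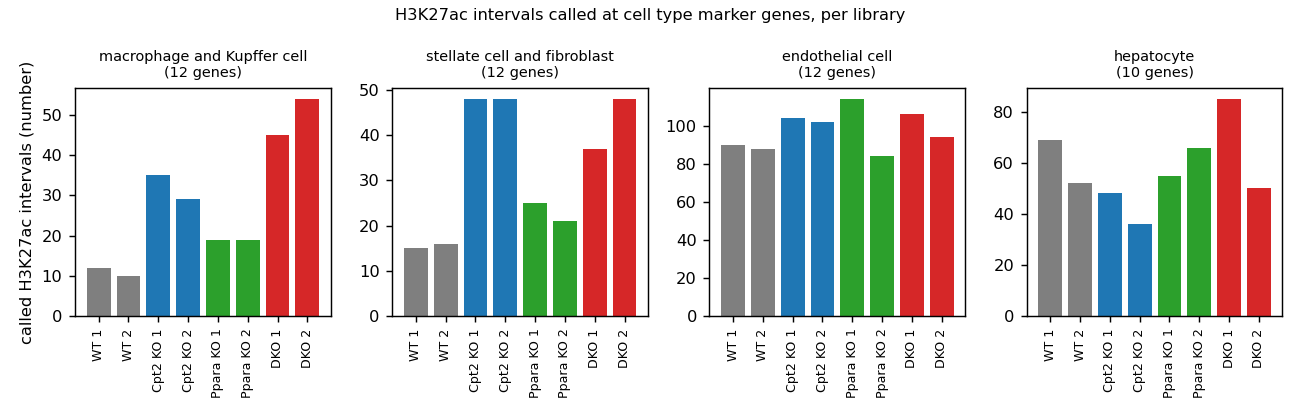
Number of called H3K27ac intervals (vertical) at the marker genes of 4 cell types in each library (grey WT, blue Cpt2 KO, green Ppara KO, red DKO). Macrophage markers have 12 and 10 calls in WT and 45 and 54 in DKO; stellate markers are as frequent in Cpt2 KO (48 and 48) as in DKO (37 and 48).

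Pathway lists were read against the same 9.09% of genes. The list of PPARA targets had DKO-only regions at 2 of 36 genes, among them Fgf21, a hormone of fasting, with folds of 4.0 and 5.17. DKO-only regions were 0.784% of the 255 intervals of that list, against 2.26% of all intervals. In the list of PPARG and lipid storage, 1 of 19 genes had one. That region lay inside Pparg (chr6:115382378-115382848), which encodes the lipid-storing relative of PPARA, and it had folds of 11.4 and 6.56. Of 38 transcription factor genes of hepatocytes 6 had a region, but the 6 regions were 0.951% of the 631 intervals of the list, less than the 2.26% of all intervals. They include Ppargc1a, a coactivator of oxidative metabolism, with 7.53 and 9.03, Nr2f1 with 6.14 and 7.93, and Cebpb with 5.24 and 6.0. The integrated stress response list had regions at 4 of 23 genes, with 2 near Ddit4, an inhibitor of mTORC1, and 1 at Slc3a2, an amino acid transporter subunit (5.27 and 8.06), and its 5 regions were 3.7% of 135 intervals.

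Immediate early, inflammatory and matrix genes had shares over genes above 9.09%, with shares of intervals of 2.59 to 3.08%. Every list with a region had a higher share over genes than over intervals, since 1 region is enough for a gene to count. AP-1 and immediate early genes had regions at 4 of 21 genes and at 2.91% of their intervals, against 2.26% of all intervals, with 2 near Klf10, 2 near Klf6 and 1 each near Fos (5.76 and 10.6) and Jun (5.5 and 6.0). Inflammation genes had regions at 6 of 33 genes and 2.59% of intervals, and the region at Tnf (chr17:35200722-35201110), which encodes tumour necrosis factor, had folds of 7.53 and 8.21. The regions at Nfkb1, an NF-kB subunit, had 6.0 and 7.86, near the chemokine Cxcl14 6.0 and 7.0, and near Il1b, interleukin 1 beta, 4.0 and 4.29. Fibrosis and matrix genes had regions at 7 of 39 genes and 3.08% of intervals. Cd44, a hyaluronan receptor, had 2, the stronger with 9.21 and 10.9, Tgfb2 had 1 with 8.67 and 13.3, Lgals3, a galectin of macrophages, 1 with 6.7 and 6.56, and Itgb8 1 with 6.69 and 6.5. These counts rest on few genes, and no test was made of them.

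The remaining pathway lists had regions at 0 to 13.5% of their genes. Their shares of intervals were 0 to 2.21%, against 2.26% of all intervals. Glycolysis and glucose genes had regions at 5 of 37, among them Pdk3, a pyruvate dehydrogenase kinase (8.93 and 9.03), the hexokinase Hk2 (7.25 and 6.84), Pfkp (7.25 and 5.75) and the lactate carrier Slc16a3 (3.67 and 4.0). Lipogenesis and cholesterol genes had them at 3 of 33 (Abca1 with 5.3 and 5.19, Sqle with 5.15 and 8.03 and Fads2 with 5.2 and 4.4). In the p53 and growth arrest list, 3 of 23 genes had regions: Gadd45g, a stress-induced growth arrest gene, with 2, the stronger at 7.25 and 12.3, Plk2 with 5.69 and 9.94, and Pmaip1 with 5.86 and 7.93. The fetal liver list had 2 of 18 (Spon1 and Sox4), the NFE2L2 list 1 of 31 (Tkt, with 2 regions) and the cell cycle list 0 of 15.

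By position, the regions were mostly away from the RefSeq starts used here. Some starts are missing from these, among them those of Slc6a8 and Fgfr1, so counts near starts are lower limits in every set. Over the chromosomes in the RefSeq table of starts, 140 of 1447 regions (9.68%, Wilson 95% interval 8.26 to 11.3) had their middle within 1000 bases of a start. The share was 16.9% for all intervals, 9.50% for all intervals not called in all 8 libraries, 6.17% for those only in WT, 4.27% for those only in Cpt2 KO and 3.61% for those only in Ppara KO. Gene bodies held 765 (51.5%) of the regions, against 66.1% of all intervals and 76.9% of those only in WT. The regions also were mostly away from stably acetylated chromatin: 273 (18.4%) lay within 5000 bases of an interval called in all 8 libraries. That share was 67.8% for the regions only in WT, 67.2% for those only in Ppara KO, 19.1% for those only in Cpt2 KO and 43.8% for all intervals not called in all 8.

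Of the regions, 102 (7.05% of 1447) overlapped a window from 250 bases before to 50 after a start. The share was 15.7% for all intervals, 5.94% for those not called in all 8 libraries, and 2.9%, 2.73% and 1.08% for those only in WT, only in Cpt2 KO and only in Ppara KO. They covered the starts of 104 genes, 88 of them protein-coding. The strongest after Uhrf1 were at Gm32552 (9.48 and 11.8), E2f2 (10.7 and 9.41), the telomere gene Pot1b (9.17 and 9.2), Smap1 (9.0 and 12) and the retinoic acid receptor gene Rarg (8.93 and 8.21). H3K9ac was present at 50 of the 102 in the WT or the Cpt2 KO liver, and 62 had no H3K4me1 in any library.

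Among these starts were 18 genes of white blood cells, picked out after the list had been read: Btk, Naip1, Lpcat2, Mefv, Lair1, Capg, Mpeg1, Mef2c, Ptprc, Fpr2, Ccdc88b, Ear2, Csf3r, Nlrp3, Cysltr2, Nlrc4, Gpr18 and Myo1g. They include the B cell and myeloid kinase gene Btk (chrX:134582410-134583133, folds of 7.81 and 10.1), Mpeg1 (chr19:12460115-12461000, 6.42 and 7.11), and the inflammasome genes Nlrp3 (5.6 and 8.0), Nlrc4 (5.0 and 5.6) and Mefv (7.75 and 6.75). The start of the eosinophil ribonuclease gene Ear2 had 5.86 and 7.66, and both intervals of Ear2 were DKO-only regions. These starts were picked by hand, and no count over them is a result. Some starts of other genes active in immune cells, also picked by hand, carried other marks. That of H2-Q7, a class I histocompatibility gene, had H3K4me1 in 4 libraries and H3K9ac in both livers. The start of Slpi, a protease inhibitor, had H3K4me1 in 5 libraries and no H3K9ac. Among the 18, Ccdc88b and Myo1g had H3K9ac in the Cpt2 KO liver. Capg, Lpcat2 and Mef2c are also expressed outside white blood cells.

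The 107 distinct windows under a DKO-only region had a median of 12 CpG in 300 bases and 54.7% G+C. Windows under any H3K27ac interval had 20 CpG and 60.3% over 12529 windows, and all 32817 windows had 7 CpG and 52.7%.

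Motifs were searched on both strands of the same windows, and a match is a description of letters. An AP-1 match followed by GC can also match the antioxidant letters, and each full DR1 is also a relaxed one. The C/EBP letters TTGCNNAA were in 15 of the 107 windows (14.0%), in 9.10% of windows under any interval and in 10.8% of all windows. The Wilson 95% interval of that share, 8.68 to 21.8%, includes both. The ETS letters CCGGAAGT were in 8 (7.48%, against 8.11% and 3.89%), the AP-1 letters TGANTCA in 7 (6.54%, against 5.33% and 7.81%) and the RUNX letters TGTGGTT in 7 (6.54%, against 3.75% and 5.27%). The TEAD letters GGAATG were in 13 windows, the antioxidant element TGACNNNGC in 12, the E-box CACGTG in 6, the CRE letters TGACGTCA in 2, the glucocorticoid receptor motif in 2 and the ATF4 with C/EBP letters TGATGNAA in 1. The FOXA letters TGTTTAC, the p53 letters ACATGTCC and the DR1 (full and relaxed), HNF1 and NF-kB motifs were in 0 of 107. A count of 0 allows a share of up to 2.80% by the limit of 3 counts and up to 3.47% by the Wilson 95% interval. FOXA letters were in 3.28% of windows under any interval, which the Wilson interval includes. The PU.1 letters GAGGAAGT, added after the white blood cell starts had been seen, were in 3.74% of the windows, against 3.18% of windows under any interval.

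H3K4me1, which played no part in the choice, was sparse at these regions. A peak of the mark overlapped 26.1% and 32.7% of the regions in DKO, 15.1% and 20.3% in Ppara KO, 17.6% and 11.0% in Cpt2 KO and 7.47% and 8.96% in WT. Both DKO livers were above the other 6, while over all H3K27ac intervals the share was 47.3 to 52.6% in every library. Over intervals called for H3K27ac in all 8 libraries, the DKO shares were 73.0 and 79.5%. Those of Cpt2 KO and Ppara KO were 69.4 to 74.1%, and those of WT 66.5 and 67.3%. In all, 899 of the 1485 (60.5%) had no H3K4me1 peak in any library, against 24.9% of all intervals, 8.03% of those only in WT, 23.1% of those only in Cpt2 KO and 17.2% of those only in Ppara KO. A further 46 had it in all 8 libraries. Means were 29.4% ± 4.67 in DKO, 17.7% ± 3.67 in Ppara KO, 14.3% ± 4.67 in Cpt2 KO and 8.22% ± 1.05 in WT (SD, n = 2 livers each). No test was made of these means.

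The share moved with a property of the libraries as well as with genotype. The smallest H3K4me1 peak was 196 to 200 bases wide in both WT livers, Cpt2 KO replicate 2 and Ppara KO replicate 1, where 7.47 to 15.1% of the regions had a peak. It was 211 and 216 bases in Cpt2 KO replicate 1 and Ppara KO replicate 2, where 17.6 and 20.3% had one, and 210 and 221 bases in DKO. Within the libraries of wider peaks the DKO livers were therefore still the higher ones, by less than against the other 4. The part of peak width in these shares was not tested further.

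**Figure D4:**
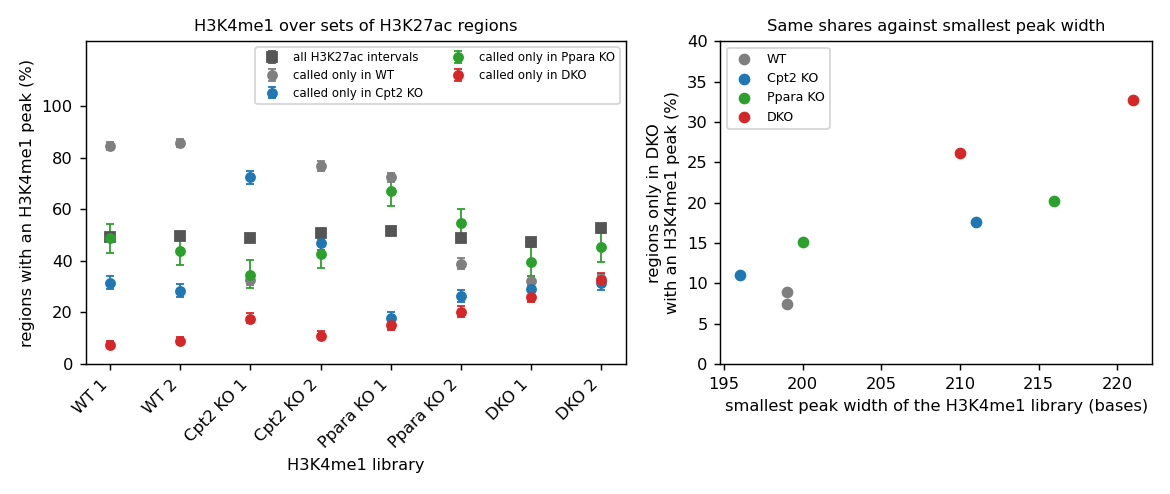
Left, percent of regions with an H3K4me1 peak (vertical) in each H3K4me1 library for all H3K27ac intervals and for the intervals called only in 1 genotype, with Wilson 95% intervals that cover counting error only; right, the same percent for the regions only in DKO against the smallest peak width of the library. The regions only in DKO have 7.47 and 8.96% in WT and 26.1 and 32.7% in DKO, where the regions only in Cpt2 KO have 28.9 and 31.3% and those only in WT 32.1 and 33%, and the libraries with wider smallest peaks have the higher shares.

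At 51 regions H3K4me1, too, was called in both DKO livers and in no other, which is 3.43% of the regions, against 0.632% of all intervals. The regions only in Cpt2 KO had H3K4me1 only in Cpt2 KO at 9.15%, against 0.409% of all intervals. Those only in WT had it only in WT at 3.88%, against 0.721%, and those only in Ppara KO had it only there at 0.690%, against 0.0699%. By the lower of the DKO folds, the strongest of the 51 for H3K4me1 was near Dact1, a regulator of Wnt signalling (chr12:71329129-71329415), with H3K4me1 folds of 10.2 and 11.4 and H3K27ac folds of 9.43 and 8.75 in DKO. A region in Cacna1c (chr6:119146218-119146502) had H3K4me1 folds of 9.5 and 9.5 and H3K27ac folds of 4.6 and 5.75. The region 181708 bases from Egln3, an oxygen-sensing prolyl hydroxylase, had 9.4 and 14.5 for H3K4me1 and 5.17 and 13.6 for H3K27ac. Those near Pid1 and in Slc8a1, a sodium-calcium exchanger, had H3K4me1 folds of 8.14 and 13.3, and 8.79 and 7.83. The regions named above in Pparg and Fgfr1 were also among the 51, each with H3K4me1 folds of 7.61 and 7.58.

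H3K4me1 levels could be tested where all 8 libraries had called a peak, at 19526 H3K4me1 intervals, of which 79 overlapped DKO-only regions. In limma, with Benjamini-Hochberg adjustment over all of them, 0 of 19526 intervals (0%) passed for DKO against the mean of the other 3 genotypes, and 2379 (12.2%) had an unadjusted p under 0.05. For the 79, 0 passed and 13 had an unadjusted p under 0.05. Their log2 difference was positive at 59 of 79, against 49.7% of all tested intervals, with a median of 0.21 against -0.00. For DKO against WT, 26 intervals passed (0.133%), of which 19 (0.0973% of all tested) were higher and 7 lower, none of them among the 79, where 20 had an unadjusted p under 0.05, against 19.4% of all. There 52 of the 79 were positive, against 48.7% of all, with a median of 0.20 against -0.02. The 79 are regions with H3K4me1 in every genotype, so they leave out most DKO-only regions and their count does not stand for all 1485.

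The 5 intervals with the smallest p for DKO against the others did not pass. Near Tle3, a Groucho corepressor (chr9:61350191-61352561), H3K4me1 folds were 11.8 and 15.6 in DKO, 9.23 and 11.6 in Ppara KO, 7.37 and 8.68 in Cpt2 KO and 6.8 and 6.9 in WT. The DKO livers were the highest, and the difference was 0.72 on the log2 scale (SE 0.22, limma adjusted p = 0.297). Near Gadd45g (chr13:51856952-51857764) the folds were 12.9 and 10.4 in DKO, 5.98 and 8.48 in Ppara KO, 10.7 and 7.45 in Cpt2 KO and 6.0 and 3.5 in WT. There Cpt2 KO replicate 1 lay between the DKO livers, and the difference was 0.81 (SE 0.26, limma adjusted p = 0.302). Near Ubl3 the folds were 3.38 to 7.82 in the other genotypes and 7.17 and 10.9 in DKO, so that the groups overlapped, with a difference of 0.76 (SE 0.26). At Habp4 they were 3.5 to 8.13 and 8.17 and 10.5, with 0.68 (SE 0.24), and at Orm3, an acute-phase protein gene, 4.5 to 9.4 and 9.0 and 11.3, with 0.73 (SE 0.28). Limma adjusted p-values of these 3 were from 0.302 to 0.338. Against WT alone, the lowest adjusted p among the 79 was 0.084, at Habp4, with a difference of 1.22 (SE 0.29). Without Cpt2 KO replicate 1 in the fit, the difference against WT was 1.35 at Gadd45g, 1.23 at Habp4 and 1.00 at Tle3. Without Cpt2 KO replicate 2 it was 1.32, 1.21 and 0.97, against 1.34, 1.22 and 0.99 in the full fit.

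**Figure D5:**
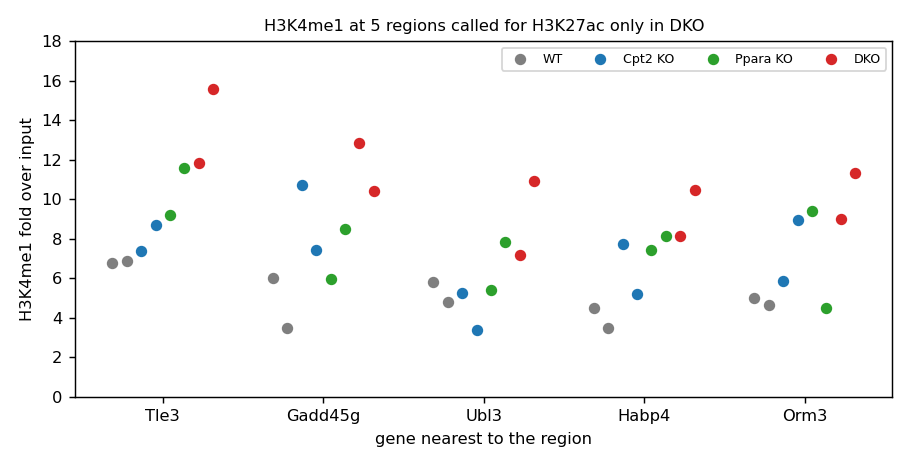
H3K4me1 fold over input (vertical) in each of the 8 livers (grey WT, blue Cpt2 KO, green Ppara KO, red DKO) at the 5 H3K4me1 intervals over DKO-only regions with the smallest p. At Tle3 both DKO livers (11.8 and 15.6) lie above the other 6, while at Gadd45g, Ubl3 and Orm3 livers of other genotypes reach into the DKO range.

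H3K9ac was found at few of the regions in the livers where it was measured. Its intervals overlapped 87 regions (5.86%) in the WT liver and 121 (8.15%) in the Cpt2 KO liver, against 34.5 and 34.6% of all H3K27ac intervals. Both livers had it at 70 regions and neither at 1347 (90.7%). The regions only in Cpt2 KO were similar, with 3.66 and 7.15%, while those only in WT had 40.7 and 33.1%. The regions only in Ppara KO, which also had no H3K27ac call in WT or Cpt2 KO, had 10 and 10.3%. Because the rule left out regions with an H3K27ac call in WT or Cpt2 KO, the choice favours low H3K9ac shares in these livers. H3K9ac in DKO livers was not analysed here.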

How the data were processed

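H3K27ac and H3K4me1 peaks of 8 livers each and H3K9ac intervals of 2 livers were used. Per the submitters' processing notes, the authors aligned reads with BWA and called peaks with MACS2 2.1.0 on mm10. The deposited peak lists give each peak's fold over input (a ratio) and its −log10 p and −log10 q. How consensus intervals were merged, and read depth, are not given in the sources used here. The peak names of 1 Ppara KO library (H3K27ac replicate 2) carry another build word, and it was used as mm10. Replicates are separate livers, by the animal numbers in the peak names.

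A call was an overlap of at least 1 base. H3K4me1 folds were set on the log2 scale, centred on each library's median and tested with limma 3.58.1 (R 4.3.3) in 1 fit over all 4 genotypes, after a test on simulated data, with Benjamini-Hochberg adjustment at 0.05. Counting used Python 3.11.15, and intervals are Wilson 95% intervals. Genes are the nearest protein-coding RefSeq bodies. Named regions are the 12 with the highest lower fold, genes with the most regions, up to 4 examples per list with further ones named after their values were seen, the 5 smallest p, the 5 highest H3K4me1 folds called only in DKO, the 3 nearest the rule on each side, and the deleted genes; some of these are not reported here. Members and lists were chosen with earlier results of these data known.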

Additional observations from a re-analysis of the deposited data

How the results depend on the processing

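Under the alternatives 180 values kept their side of the threshold or stayed within the spread, and 27 moved. Leaving out 1 library at a time gave 1511 to 5099 regions, with 5099 without DKO replicate 1 and 3154 without DKO replicate 2, since 1 call then suffices. The mean WT share with H3K4me1 was 6.77% with an overlap of 50% and 6.30% for H3K4me1 peaks of −log10 q of at least 10. Within 5000 bases of a start lay 24.4% of the regions. In the 150 bases of the smaller motif window the shares were 7.48% (C/EBP), 6.54% (TEAD), 2.80% (ETS) and 0% (glucocorticoid receptor).

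With intervals called in at least 4 libraries and the rest filled with the lowest fold, limma tested 47772 intervals. It called 15 of them for DKO against the others and 239 against WT. Of the 285 tested intervals over DKO-only regions, 7 were called against WT (AU040320, Cd276, Cdc42se2, Elfn1, Il1rn, Prdm16 and Topaz1), all higher in DKO. The difference from WT was positive at 81.4% of the 285, against 49.7% of all tested intervals. In this setting DKO calls help an interval reach 4 libraries, and an uncalled WT value is the fill. The 7 calls and the 81.4% therefore depend partly on the fill and are no separate measure of a difference. Against WT, the 26 calls became 3 without centring, 1 with the stricter peaks, 0 with the smallest peak width as a covariate and 0 with the replicate block. Leaving out 1 library gave 0 to 279 calls against the others (279 without Cpt2 KO replicate 1) and 0 to 1012 against WT. The latter were 1012 and 973 without Cpt2 KO replicates 1 and 2, 58 without Ppara KO replicate 2, and 0 without either WT or either DKO library. Over DKO-only regions the range against WT was 0 to 5, with 5 and 3 without Cpt2 KO replicates 1 and 2. The cause was not tested. Deviations of replicate 1 from the genotype mean correlated between genotypes at -0.49 to 0.10, so equal numbers were not taken as pairs in the main fit. At -0.49, between Cpt2 KO and Ppara KO, replicate 1 of each varied with replicate 2 of the other. Cpt2 KO replicate 1 and Ppara KO replicate 2 had smallest H3K4me1 peaks of 211 and 216 bases. A link between these libraries was not tested. The replicate block left 0 calls over DKO-only regions. Depth in reads is unknown, and absence from a peak list is no measure of a mark.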
